A study of Mus musculus with 6 samples.

Results

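The genes described here encode proteins of the spliceosome and the proteins that choose splice sites, the heterogeneous nuclear ribonucleoproteins (hnRNPs) and the SR proteins. They were chosen by symbol, as every gene whose name starts with Hnrnp, Srsf, Snrp, Sf3a, Sf3b or Prpf, with U2af1, U2af2 and Pqbp1. That gave 62 of the 18193 genes with a single symbol on the array, read by 175 probe sets, each a group of short probes that together give 1 signal. Pqbp1 was taken in because 1 of its probe sets fell in the comparison below, so its values are given as a description with no test and are kept out of the counts and medians of changes, which leaves 61 genes and 173 probe sets.

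RNA came from motor neurons of the mouse brainstem and was measured on 6 Affymetrix arrays, 3 from wild-type (WT) mice and 3 from mice labelled SOD1, a genotype named for the copper-zinc superoxide dismutase gene, in which mutations cause inherited amyotrophic lateral sclerosis. The sources used here do not give the change of SOD1 carried by these mice, their strain or age, how the neurons were collected or whether animals were pooled. All 6 samples went through 2 rounds of T7-based RNA amplification. Since no label ties a genotype's 3 samples to separate animals, p-values measure only how these samples vary, which may be technical.

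Splicing removes introns from pre-mRNA. Small nuclear ribonucleoproteins (snRNPs), built on short RNAs and a ring of Sm proteins, recognise the ends of the intron and its branch point, and the SF3a and SF3b complexes belong to the U2 particle that binds the branch point. PRPF proteins, named after yeast pre-mRNA processing genes, build and activate the catalytic particle. SR proteins mostly promote and hnRNPs often repress the use of nearby exons, and neurons use alternative exons widely. Array probe sets near the 3' end of a transcript report how much of a gene's RNA is present and say little about which exons that RNA keeps.

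Promoters are printed for the 3 genes on which the description below turns, Pqbp1, Prpf19 and Sf3b6, from RefSeq (GRCm38.p6). Each holds 250 bases before and 50 after an annotated start, 5′ to 3′ on the strand of the gene, with capitals marking exact matches, on either strand, to CCGGAAG (bound by ETS factors), GGGCGG (SP1), CCAAT (NFY), TATAAA (the TATA box) or 1 fixed 10-base form each of the YY1 and NRF1 motifs. The first listed promoter of Pqbp1 lies at chrX:7899220-7899519 (minus strand), that of Prpf19 at chr19:10894981-10895280 (plus strand), and that of Sf3b6 at chr12:4817358-4817657 (plus strand).
Pqbp1: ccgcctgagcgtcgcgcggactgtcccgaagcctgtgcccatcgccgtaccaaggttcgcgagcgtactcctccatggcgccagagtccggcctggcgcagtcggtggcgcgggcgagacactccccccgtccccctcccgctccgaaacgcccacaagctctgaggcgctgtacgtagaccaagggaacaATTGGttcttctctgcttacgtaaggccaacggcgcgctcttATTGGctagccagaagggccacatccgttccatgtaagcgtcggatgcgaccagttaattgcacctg
Prpf19: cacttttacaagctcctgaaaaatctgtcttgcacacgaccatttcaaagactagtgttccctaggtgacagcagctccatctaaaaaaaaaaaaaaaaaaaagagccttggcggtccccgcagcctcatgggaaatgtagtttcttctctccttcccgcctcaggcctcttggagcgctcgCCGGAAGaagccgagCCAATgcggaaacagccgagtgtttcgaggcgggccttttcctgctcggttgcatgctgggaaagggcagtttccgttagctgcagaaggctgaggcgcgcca
Sf3b6: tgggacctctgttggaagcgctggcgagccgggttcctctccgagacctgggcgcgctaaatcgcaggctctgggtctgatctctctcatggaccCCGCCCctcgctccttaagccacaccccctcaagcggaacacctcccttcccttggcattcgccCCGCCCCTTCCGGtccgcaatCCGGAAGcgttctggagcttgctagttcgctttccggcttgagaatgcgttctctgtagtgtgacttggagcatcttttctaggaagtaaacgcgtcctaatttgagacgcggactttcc
The printed Pqbp1 promoter held 2 CCAAT matches, both on the opposite strand. Another promoter listed for Pqbp1 held a CCAAT match on the gene's strand and an SP1 match. The printed Prpf19 promoter had 1 ETS match and 1 CCAAT match, and another listed for this gene held a CCAAT match alone. Sf3b6 had 4 matches, 2 of the ETS and 2 of the SP1 letters, with an ETS and an SP1 match that overlap. Promoters were listed for 55 of the 62 genes, Pqbp1 included, 76 in all, and of these 31.6% held the ETS letters, against 8.86% of all 32851 listed promoters and 11.6% of the 21263 of protein-coding genes. The SP1 letters were in 63.2% of the members' promoters, 35.7% of all and 46.2% of the protein-coding ones. CCAAT was in 51.3%, 37.4% and 38.2%, and TATAAA in 7.89%, 13.6% and 12.6%. The NRF1 form was in 1.32% of the members' promoters, 0.971% of all and 1.33% of the protein-coding ones, and the YY1 form in 2.63%, 0.852% and 1.21%. The members' promoters had a median GC content of 60.2%, against 52.7% for all and 56.3% for protein-coding genes. Their median count of the letters CG was 25, against 7 for all and 13 for protein-coding genes. The ETS and SP1 letters both hold CG, and the part of this in their shares was not tested. These matches describe the letters of each window and say nothing about whether a factor binds there.

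Signals were compared as log2 values after quantile normalisation with 16 added, and each change is the SOD1 mean less the WT mean on that scale, given ± SE (n = 3 arrays in each group). The added 16 understates the change of low signals. The median signal of the 6 arrays lay between 267 and 315 as deposited. A filter at the 40th percentile of mean signal kept 27022 probe sets for testing, 166 of them members, and 155 of these were above the level of bacterial control probe sets on all 6 arrays. The 7 member probe sets below the filter belonged to Hnrnpc, Prpf4b, Sf3a1, Sf3b5, Snrpc, Srsf1 and Srsf11, each of which kept at least 1 other. Over all genes, 50 probe sets passed limma's test at an adjusted p of 0.05, and this count was 9 without WT replicate 1, 0 without WT replicate 2, 79 without WT replicate 3, 6 without SOD1 replicate 2 and 29 without SOD1 replicate 3.

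Leaving Pqbp1 aside, no member passed this test between SOD1 and WT. SR protein and hnRNP probe sets, often several to a gene, lay more often above than below WT, with 74.2% and 70.2% positive, against 49.5% of all tested. The groups separated in 4 of 5 kept probe sets of Prpf19 (lower), 3 of 4 of Sf3b6 and 3 of 7 of Hnrnpdl (both higher). These genes are given here because they had the most such probe sets among the members, and probe sets of the same gene are not independent. Of the 166 member probe sets, 0 were called higher, against 0.0629% of all tested, and 0 lower, against 0.122% (limma, adjusted p from 0.103 upward). At an unadjusted p under 0.05 by limma, 15 were higher (9.04%, against 7.09% of all tested) and 11 lower (6.63%, against 7.58%). All 3 SOD1 arrays lay above all 3 WT arrays for 21 member probe sets (12.7%, against 10.5%) and below them for 13 (7.83%, against 9.81%). The members' shares were thus near the background in each direction. Their median change was 0.10, against -0.0065 over all probe sets tested, and the middle of the distribution, from the first to the third quartile, ran from -0.12 to 0.38. Without quantile normalisation the member median was 0.05, and median centring gave 0.16, while the median of all probe sets moved to -0.06 and 0.04. Taking for each gene the probe set with the highest signal turned the member median to -0.03, and without SOD1 replicate 1 it was 0.17. The highest-signal summary was not made by family, so the SR and hnRNP shares rest on all their kept probe sets.

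The families differed in where their probe sets lay, as the plot of changes by family shows. SR protein probe sets had a median of 0.28 (31 probe sets, 23 positive) and hnRNP probe sets a median of 0.20 (57, with 40 positive), and the gene median was positive for 7 of 10 SR genes and 15 of 19 hnRNP genes. The medians were 0.05 for the 17 Snrp probe sets, -0.02 for the 28 of Sf3a and Sf3b and -0.07 for the 31 of Prpf. With values as deposited the Snrp median was -0.02, and with median centring those of Sf3a and Sf3b (0.07) and Prpf (0.02) were positive, while the SR median was 0.22 and 0.33 and the hnRNP median 0.10 and 0.20. Array by array, the SR median deviation was 0.04, 0.12 and 0.35 on SOD1 replicates 1, 2 and 3, against -0.04, -0.17 and -0.12 in WT, so the groups did not overlap and SOD1 replicate 3 was farthest from the rest. The Sf3a and Sf3b medians by array lay higher on all SOD1 arrays (0.07 to 0.11, against -0.06 to 0.04) and the Prpf medians lower (-0.03 on each, against 0.02 to 0.20). Yet 13 Sf3a and Sf3b probe sets had positive and 15 negative changes, and of Prpf 14 were positive and 17 negative. For the hnRNPs WT replicate 3 (0.05) lay within the SOD1 values (0.02, 0.04 and 0.10). Over all tested probe sets the median deviation was 0.02 to 0.04 on every array, so family values in that range lay at the level of all probe sets. The Snrp medians ran from -0.22 to 0.25 in WT and from -0.06 to 0.14 in SOD1. Leaving out 1 array moved several of these medians by over 1.5 times. The hnRNP median became 0.12 when WT replicate 2 was left out and 0.11 when SOD1 replicate 2 was. The Snrp median was -0.04 without SOD1 replicate 3, 0.0068 without WT replicate 3, 0.08 and 0.09 without WT replicates 2 and 1 and 0.17 without SOD1 replicate 1. That of Sf3a and Sf3b was -0.06 without WT replicate 3 and positive, at 0.0082 to 0.07, without any other array. That of Prpf was -0.21 without WT replicate 1, -0.0017 without WT replicate 3, and -0.11 and -0.12 without SOD1 replicates 2 and 3. The U2af genes, 1 probe set each, both had negative changes, every other family had gene medians of both signs, and none of these medians carries a test.

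**Figure D1:**
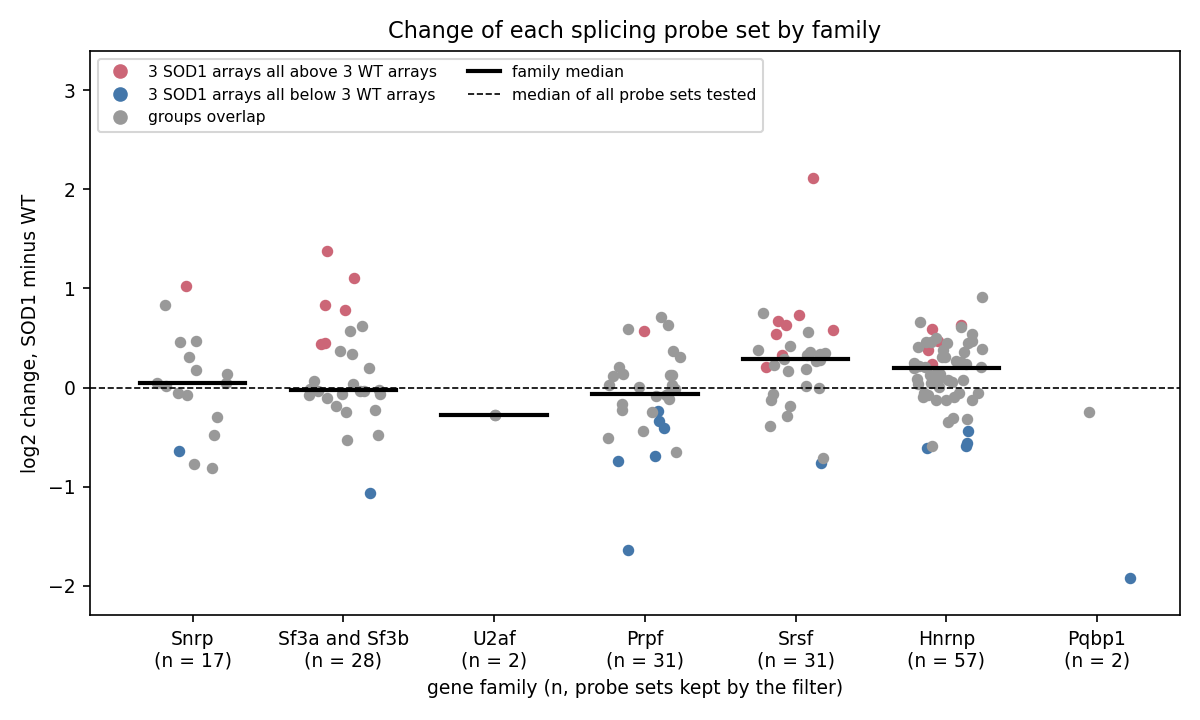
Log2 change (SOD1 minus WT) of the 168 probe sets kept by the filter, 2 of Pqbp1 included, by family, with the family median as a bar and the median of all tested probe sets dashed; red and blue mark probe sets whose groups do not overlap. Red points (21) lie above the dashed line and blue points (13, without Pqbp1) below it, and every family with more than 2 probe sets has both. The lowest point is the Pqbp1 probe set that led to its choice.

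**Figure D2:**
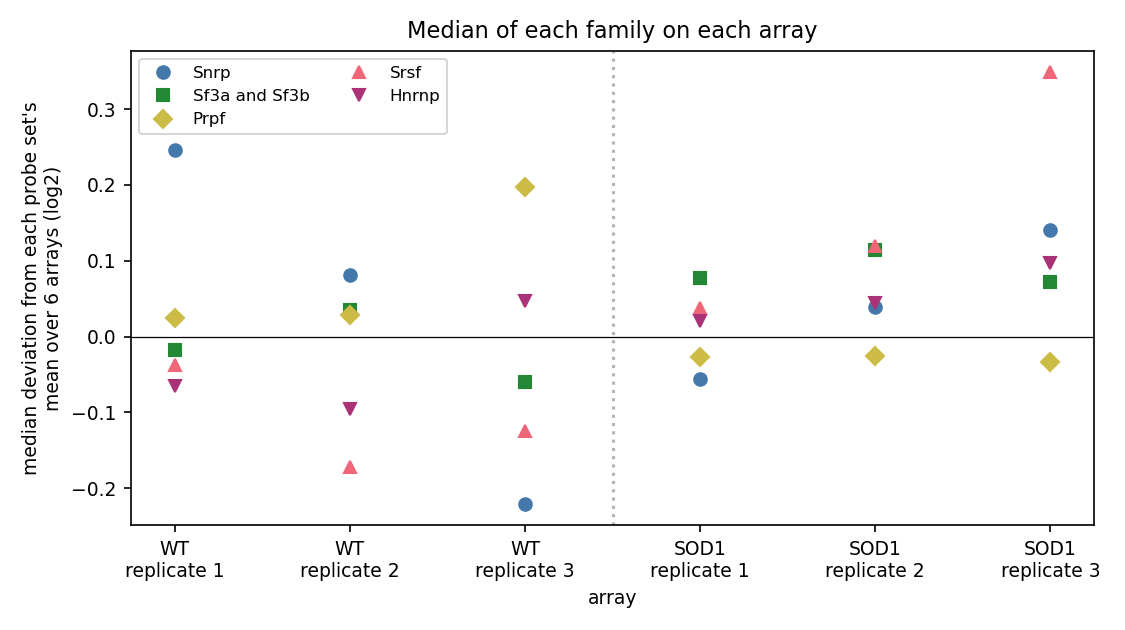
Median over each family of the deviation of every probe set from its own mean over the 6 arrays (log2), by array. The SR genes reach 0.35 on SOD1 replicate 3, and the Snrp genes spread from 0.25 to -0.22 among the WT arrays.

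Pqbp1 encodes the polyglutamine-binding protein 1, an X-linked WW-domain protein that associates with U5 proteins of the spliceosome and is mutated in an inherited intellectual disability. Its probe set 1456086_x_at read 14.96, 15.30 and 14.73 on WT replicates 1 to 3 and 13.38, 12.86 and 12.97 on SOD1 replicates 1 to 3 (log2 signal). All SOD1 arrays were below all WT arrays, at means of 15.00 ± 0.28 and 13.07 ± 0.27 (SD, n = 3), a log2 change of -1.92 ± 0.20 or 3.80-fold lower. The other probe set, 1417731_at, read 13.22, 13.14 and 12.77 in WT and 13.06, 12.57 and 12.76 in SOD1, where the groups overlapped and the change was -0.25 ± 0.22. The probe sets for the same gene thus gave changes of very different size, and the larger one carries the suffix that Affymetrix gives to probe sets with probes matching other transcripts. Leaving out each array in turn gave between -2.08 and -1.78 for the first and between -0.38 and -0.13 for the second. Xist, which is transcribed from the inactive X chromosome, read 12.83, 12.91 and 5.71 (mean log2 signal) on SOD1 replicates 1 to 3 and 5.76 to 7.07 in WT. With a term for Xist the changes of these Pqbp1 probe sets were -2.03 and -0.31. Xist was thus high on SOD1 replicates 1 and 2 and on no WT array, so its level is partly tied to genotype in every comparison described here. The sample titles give no sex. With the Xist term the family medians were 0.40 for SR, 0.15 for hnRNP, 0.10 for Snrp, 0.09 for Sf3a and Sf3b and 0.01 for Prpf probe sets.

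**Figure D3:**
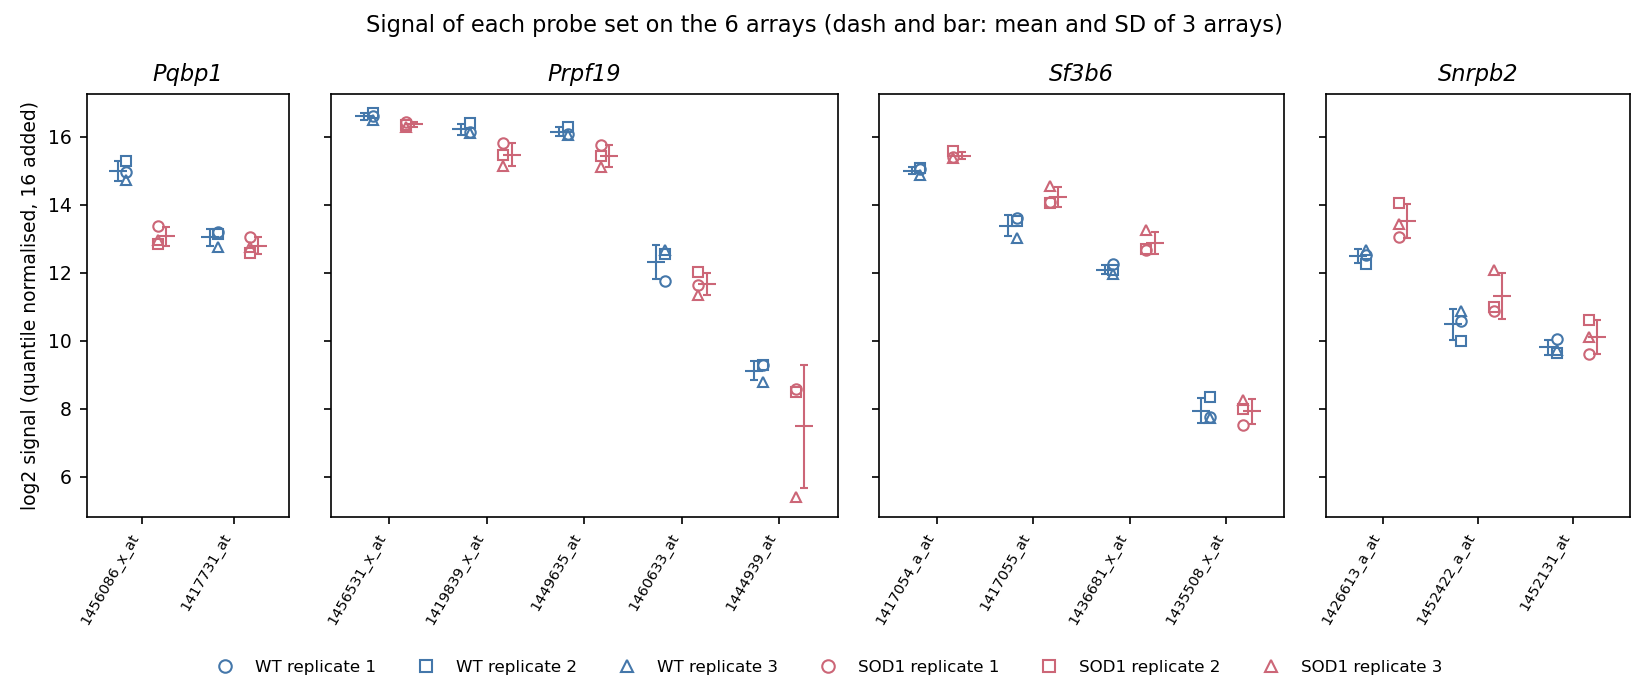
Log2 signal of every kept probe set of Pqbp1, Prpf19, Sf3b6 and Snrpb2 on each of the 6 arrays, with mean and SD (n = 3). Of the Pqbp1 probe sets 1 separates the groups (a change of -1.92) and 1 does not, while Prpf19 is lower in SOD1 in 4 probe sets whose groups do not overlap, and Sf3b6 higher in 3.

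The Snrp genes encode the Sm ring and proteins specific to the U1 and U2 particles, and those with the smallest p pointed in both directions. Snrpb2, the U2 protein B'', read 12.53, 12.27 and 12.67 in WT and 13.06, 14.05 and 13.43 in SOD1 with probe set 1426613_a_at. Every SOD1 array exceeded every WT array, and the change was 1.02 ± 0.26 (2.03-fold, limma, adjusted p = 0.137). Its other probe sets gave 0.83 ± 0.39 (0.45 without SOD1 replicate 3) and 0.31 ± 0.36, both with overlapping groups.

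Snrpb, which encodes the Sm proteins B and B', lay lower in SOD1 in both of its probe sets, at -0.81 ± 0.28 (1437193_s_at, adjusted p = 0.223) and -0.64 ± 0.28 (1419260_a_at, adjusted p = 0.319, limma). The first read 14.49, 14.51 and 13.77 in WT and 14.02, 13.02 and 13.30 in SOD1, so SOD1 replicate 1 overlapped WT replicate 3. For the second, the SOD1 values (11.53, 11.05 and 10.97) all lay below those of WT (11.82, 12.08 and 11.59). Snrpc, the U1 protein that stabilises pairing with the 5' splice site, read 14.04, 14.07 and 13.37 in WT against 13.47, 12.87 and 12.83, a change of -0.77 ± 0.25 (limma, adjusted p = 0.202), with SOD1 replicate 1 above WT replicate 3. WT replicate 3 was thus the lowest WT array for the Snrpb and Snrpc probe sets.

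Snrpg, the Sm protein G, gave 0.46 ± 0.20 (1448358_s_at, limma, adjusted p = 0.317) and 0.47 ± 0.39, with overlapping groups in both. Without SOD1 replicate 3 the first was 0.30. The groups overlapped in every kept probe set of the other Sm and snRNP genes. Snrpe was at -0.05, Snrpf at 0.18, the 3 Snrpd3 probe sets between -0.47 and -0.08 and the 3 of the U2 protein gene Snrpa1 between 0.02 and 0.13. Snrpn, a neuronal Sm gene that is imprinted, was at 0.05 ± 0.41. In all, 1 Snrp probe set lay wholly above WT (5.88%, against 10.5% of all tested) and 1 wholly below (5.88%, against 9.81%).

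Genes of SF3a and SF3b, the U2 complexes that hold the branch point, included Sf3b6, whose protein touches the branch point adenosine. Probe set 1417055_at of Sf3b6 read 13.60, 13.53 and 13.04 in WT and 14.07, 14.05 and 14.56 in SOD1, a change of 0.84 ± 0.21 (1.79-fold, limma, adjusted p = 0.136). Probe set 1417054_a_at read 15.05, 15.09 and 14.88 against 15.40, 15.58 and 15.37 (0.44 ± 0.12, adjusted p = 0.156, limma). Probe set 1436681_x_at read 12.25, 12.08 and 11.97 against 12.69, 12.71 and 13.26 (0.79 ± 0.24, limma, adjusted p = 0.174). In all 3 the SOD1 arrays stood above the WT arrays, and over the alternatives their changes ranged from 0.36 to 1.07, never below an adjusted p of 0.0821 by limma. The other one, 1435508_x_at, had a signal near the control level (7.95 ± 0.36 in WT, SD, n = 3) and a change of -0.02 ± 0.53, which was 0.01 with median centring.

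Sf3a2 and Sf3a3, subunits of SF3a, had probe sets that disagreed. Sf3a2 read 12.99, 13.21 and 12.28 in WT and 12.01, 11.65 and 11.62 in SOD1 with 1455546_s_at, without overlap, a change of -1.06 ± 0.28 (2.09-fold lower, limma, adjusted p = 0.143). Its other probe set, at 7.44 ± 1.02 in WT (SD, n = 3), gave 0.37 ± 0.66. Sf3a3 read 10.68, 11.31 and 9.62 in WT against 11.75, 11.89 and 12.08 with 1432488_a_at, also without overlap, and changed by 1.38 ± 0.39 (limma, adjusted p = 0.159). The other Sf3a3 probe set gave -0.06 ± 0.30. WT replicate 3 was the lowest WT array for the first-named probe set of either gene, and without it the changes were -1.34 for Sf3a2 and 0.92 for Sf3a3.

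Sf3b4, which contacts pre-mRNA near the branch point, gave -0.48 ± 0.26 (limma, adjusted p = 0.429) and 0.06 ± 0.34, the second being -0.07 with values as deposited. Sf3b1, the largest SF3b subunit and a gene mutated in blood cancers, ranged from -0.10 to 0.62 over 4 probe sets. Sf3b2 was read by 7, of which the 2 whose groups did not overlap gave 0.45 ± 0.31 and, with 1 WT array below the control level, 1.11 ± 0.72, and the other 5 lay between -0.03 and 0.57. Sf3a1, the remaining SF3a subunit, ranged from -0.25 to -0.06 and the SF3b subunit Sf3b3 was at -0.53 and -0.19, while Sf3b5 was at 0.03 and -0.02, all with overlap. U2af1 and U2af2, the heterodimer that reads the 3' end of the intron, were each read by 1 probe set. U2af1 read 12.45, 13.14 and 12.96 in WT and 12.13, 12.67 and 12.92 in SOD1 (-0.28 ± 0.27, limma, adjusted p = 0.676). U2af2 read 12.56, 12.48 and 12.15 against 12.41, 11.90 and 12.06 (-0.28 ± 0.24, limma, adjusted p = 0.634). The groups overlapped for both, and with a term for Xist the change of U2af1 was 0.04.

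All 5 probe sets of Prpf19 had negative changes. It encodes a ubiquitin ligase that forms the core of the complex that activates the spliceosome. Probe set 1419839_x_at read 16.14, 16.41 and 16.11 in WT and 15.82, 15.46 and 15.14 in SOD1, a change of -0.75 ± 0.16 (1.68-fold lower, limma, adjusted p = 0.103). Probe set 1449635_at followed it closely, at 16.10, 16.29 and 16.04 against 15.77, 15.45 and 15.13 (-0.70 ± 0.15, limma, adjusted p = 0.108). The groups overlapped in neither, and SOD1 replicate 3 was the lowest array in both.

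Probe set 1456531_x_at of Prpf19 read 16.62, 16.70 and 16.50 against 16.45, 16.36 and 16.29 (-0.24 ± 0.09, limma, adjusted p = 0.27), again without overlap, but with median centring its change was 0.05. For 1460633_at the groups overlapped (-0.65 ± 0.30, limma, adjusted p = 0.355), with WT replicate 1 at 11.75 and SOD1 replicate 2 at 12.02. In 1444939_at SOD1 replicate 3 was below the control level at 5.40, and the change of -1.64 ± 0.78 (limma, adjusted p = 0.359) was -0.59 without that array. Under the alternatives, the change of 1419839_x_at stayed between -1.02 and -0.51 and its adjusted p between 0.0565 and 0.369 (limma), and that of 1449635_at between -0.97 and -0.46. No Prpf19 probe set passed the threshold under any of them.

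The other Prpf genes were less uniform. Prpf31, a protein of the U4/U6 particle that is mutated in retinitis pigmentosa, gave 0.57 ± 0.27 (1453005_at, limma, adjusted p = 0.358) without overlap and 0.14 ± 0.20 with overlap. Without WT replicate 3 the first was 0.36. Prpf38a, which joins just before activation, gave 0.59 ± 0.28 (limma, adjusted p = 0.367), 0.71 ± 0.43 and 0.12 ± 0.68, all with overlapping groups. Of the 5 kept probe sets of Prpf4b, a kinase of the tri-snRNP, 1 was at 0.63 ± 0.33 (1425498_at, limma, adjusted p = 0.405; 0.41 without SOD1 replicate 3) and 4 lay between -0.51 and -0.07. Prpf8, the protein at the catalytic centre, was at -0.12. Prpf6 (-0.33 ± 0.18) and Prpf40b (-0.41 ± 0.27) each had 1 probe set lower in SOD1 without overlap, and for Prpf6 the other kept probe sets gave -0.23 and -0.02. Prpf3 (-0.07), Prpf18 (0.37), the pair of Prpf4 (-0.44 and -0.09), the 4 of Prpf38b (0.01 to 0.21) and the 3 of Prpf39 (0.02 to 0.31) overlapped. The 1 Prpf probe set wholly above WT (3.23%, against 10.5%) was that of Prpf31, and 6 lay wholly below (19.4%, against 9.81%), 4 of them of Prpf19.

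SR proteins bind exonic enhancers and carry arginine-serine repeats that are phosphorylated. Srsf3, the smallest of them, was read by 6 kept probe sets. Probe set 1454993_a_at read 13.14, 12.75 and 12.54 in WT and 13.24, 13.33 and 13.62 in SOD1 (0.58 ± 0.22, limma, adjusted p = 0.258), and 1416152_a_at read 12.17, 12.21 and 11.91 against 12.38, 12.73 and 12.79 (0.54 ± 0.23, limma, adjusted p = 0.309). Both separated the groups. Of the other 4, 3 gave 0.35 to 0.56 with overlap (the last 0.29 without WT replicate 2) and 1, above the control level on 2 of 3 arrays in each group, gave -0.29 ± 0.76.

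Srsf11, an SR-related splicing factor, read 6.85, 7.99 and 7.01 in WT and 9.47, 10.21 and 8.54 in SOD1 with 1439095_at. Since 2 of 3 WT arrays were below the control level, the fitted change of 2.12 ± 0.57 (limma, adjusted p = 0.147) is set largely against background signal and has no exact size. Of its other kept probe sets, 1427269_at gave 0.32 ± 0.22 without overlap (0.13 without SOD1 replicate 2) and 1452371_at gave -0.0044 ± 0.22 (0.06 with median centring). A probe set below the filter, 1430077_at, read 8.59, 7.87 and 7.39 in WT and 7.53, 4.63 and 5.45 in SOD1, with overlap and 1 of 3 SOD1 arrays above the control level. The probe sets of Srsf11 thus did not give 1 direction.

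Srsf9 and Srsf4, each read by 1 probe set, lay lower in SOD1. Srsf9 read 12.96, 13.11 and 13.31 in WT and 12.56, 12.65 and 11.91 in SOD1, without overlap (-0.76 ± 0.25, limma, adjusted p = 0.204). Srsf4 read 12.93, 13.22 and 12.43 against 12.60, 12.17 and 11.68, with overlap (-0.71 ± 0.29, limma, adjusted p = 0.299), and without SOD1 replicate 3 its change was -0.47. Srsf1, the founding SR protein, had 6 kept probe sets between -0.06 and 0.67, of which 2 separated the groups, at 0.67 ± 0.32 and 0.21 ± 0.13. Srsf10, which represses splicing when it loses its phosphates, was positive in all 4 probe sets (0.19 to 0.75), Srsf2 in 3 of 4 (-0.12 to 0.73) and Srsf6 in 3 of 4 (-0.19 to 0.33). Srsf5 was at -0.39 and Srsf12 at 0.02. The 8 SR probe sets wholly above WT (25.8%, against 10.5% of all tested) came from 5 genes, Srsf1, Srsf2, Srsf3, Srsf10 and Srsf11, and 1 (3.23%, against 9.81%) lay wholly below.

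The hnRNPs coat nascent RNA, and several bind defined short motifs. Hnrnpk, which binds C-rich RNA, was the 1 member with probe sets separating the groups in opposite directions. Probe set 1448176_a_at read 12.69, 12.72 and 12.76 in WT and 12.17, 12.20 and 12.14 in SOD1 (-0.56 ± 0.21, limma, adjusted p = 0.251), with an SD of 0.04 and 0.03. Probe set 1460547_a_at read 16.002, 15.89 and 15.63 against 16.03, 16.13 and 16.05 (0.23 ± 0.12, limma, adjusted p = 0.382), and without WT replicate 3 its change was 0.13. The other pair, with overlapping groups, gave 0.37 ± 0.16 and 0.41 ± 0.35. The 1448176_a_at difference kept its sign in all 18 alternatives, between -0.60 and -0.50.

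Hnrnpdl, an RNA-binding protein related to Hnrnpd, was read by 7 probe sets. Probe set 1420093_s_at read 12.33, 12.74 and 12.33 in WT and 12.97, 13.44 and 12.89 in SOD1 (0.64 ± 0.23, limma, adjusted p = 0.247). It and 2 others, at 0.59 ± 0.29 and 0.47 ± 0.21, separated the groups. The remaining 4 overlapped, at -0.59, -0.12, 0.07 and 0.07, and the one at -0.12 was 0.01 without quantile normalisation and 0.12 with median centring. Hnrnpa2b1, which also carries RNA along dendrites, read 11.72, 11.58 and 11.75 in WT and 10.94, 11.26 and 11.08 in SOD1 with 1433830_at (-0.59 ± 0.25, limma, adjusted p = 0.319), and 1433829_a_at gave -0.44 ± 0.21, both without overlap. Its other probe sets gave 0.03 ± 0.17 and -0.09 ± 0.24.

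Hnrnpf, which binds G tracts, gave 0.47 ± 0.20 with 1456664_x_at (limma, adjusted p = 0.297), and its other probe sets lay between -0.05 and 0.31, all with overlap. Hnrnph2, an X-linked relative, was at 0.38 ± 0.19 without overlap, and Hnrnpul2 gave -0.61 ± 0.29 without overlap and -0.12 ± 0.19 with it. Hnrnpab was positive in 6 of 7 probe sets (-0.31 to 0.61) and Hnrnpr in 4 of 5 (-0.05 to 0.91), with overlap in every one. Hnrnpa1, in which mutations cause a motor neuron and muscle disease, lay between 0.08 and 0.36 in 3 probe sets. Hnrnpu, Hnrnpd, Hnrnpc, Hnrnpl and Hnrnph1 had probe sets of both signs, and the single probe sets of Hnrnpa0 (0.05), Hnrnpm (0.08) and Hnrnpul1 (0.0078) were near 0. Hnrnph3 was at -0.09 and the pair of Hnrnpll at 0.13 and 0.30, with overlap. Of the 57 hnRNP probe sets, 5 lay wholly above WT (8.77%, against 10.5% of all tested) and 4 wholly below (7.02%, against 9.81%).

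Probe sets of a gene often disagreed. Of the 42 members with at least 2 kept probe sets, 10 were positive in all, 8 negative in all and 24 mixed, so 42.9% had 1 sign, against 54.2% of the 5953 such genes on the array. These shares depend on how many probe sets a gene has. Members with 3 or more kept probe sets that shared a sign were Prpf19, Sf3a1, Prpf6 and Snrpd3 on the negative side and Snrpb2, Prpf38a, Prpf38b, Prpf39, Srsf10, Hnrnpa1 and Snrpa1 on the positive side. Of the 166 kept member probe sets, 41 have an identifier ending in _s_at or _x_at, the marks of probes shared between transcripts, and without them the member median was 0.07. The hnRNP median was then 0.08, against 0.20 with them, and the SR median 0.27, against 0.28.

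**Figure D4:**
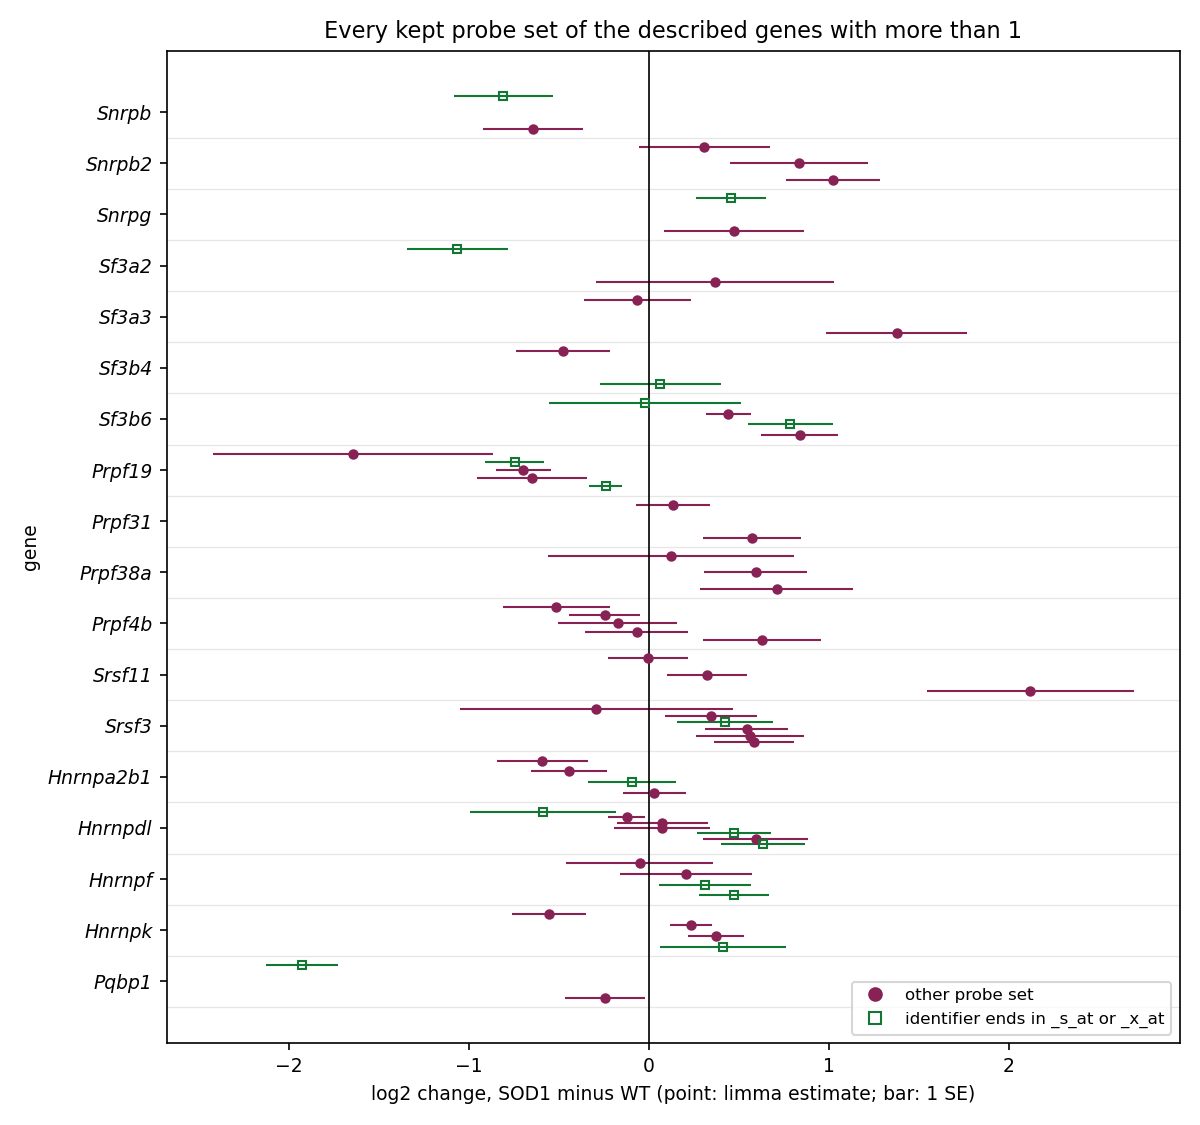
Log2 change ± 1 SE of every kept probe set of the described genes with more than 1, grouped by gene; green squares mark identifiers ending in _s_at or _x_at. The 5 Prpf19 estimates lie left of 0 and the 3 of Snrpb2 right of it, while Hnrnpk, Sf3a2 and Sf3a3 have estimates on both sides.

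Other splicing genes, outside these families, were also not called. Over 161 of them, read by 413 probe sets in 12 lists, 0 passed in either direction, and at an unadjusted p under 0.05 by limma 24 were higher (5.81%, against 7.09% of all tested) and 31 lower (7.51%, against 7.58%). The median change was -0.03. The known partners of PQBP1 and related U5 proteins (Wbp11, Txnl4a, Txnl4b and Cd2bp2) had a median of -0.24 over 8 probe sets with 0 at an unadjusted p under 0.05, and the 3 of Cd2bp2 gave -0.24 ± 0.20, -0.40 ± 0.28 and -0.53 ± 0.31. Complexes of activation and catalysis had a median of 0.11 over 52 probe sets, with 6 higher (11.5%) and 0 lower at an unadjusted p under 0.05, and Ik, of the B complex, had the smallest p (0.92 ± 0.19, limma, adjusted p = 0.0927, its other probe sets at 0.11 to 0.41).

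Among SR-related proteins (65 probe sets, 5 higher, 7.69%, and 7 lower, 10.8%, at an unadjusted p under 0.05), Rsrc2 was at 1.35 ± 0.24 (limma, adjusted p = 0.0621), with 0.54 ± 0.28 and 0.37 ± 0.40 in its other probe sets. Neuronal splicing regulators (67 probe sets, 4 higher, 5.97%, and 8 lower, 11.9%) included Qk, the quaking gene, which glial cells express strongly, as the gene of smallest p (0.98 ± 0.20, limma, adjusted p = 0.089). Of the other 6 Qk probe sets, 1 gave 0.96 ± 0.35 without overlap and 5 overlapped, at -0.0020 to 1.26. RNA-binding proteins related to hnRNPs (55 probe sets, 4 higher, 7.27%, and 6 lower, 10.9%) included Khsrp, a regulator of splicing and mRNA decay, lower in all 3 probe sets without overlap (-1.79 ± 0.38, limma, adjusted p = 0.0938, then -1.25 ± 0.39 and -0.90 ± 0.37). The helicase Ddx39b gave -0.80 ± 0.18 (limma, adjusted p = 0.103), -1.15 ± 0.27 and 0.88 ± 0.50, the last near the control level. Tia1, which binds U-rich RNA near 5' splice sites, gave -1.04 ± 0.27 and -2.25 ± 0.60 (both adjusted p = 0.143 by limma), and its other probe sets lay between 0.02 and 0.25. For the probe set at -2.25, 2 of 3 SOD1 arrays were below the control level, so its change has no exact size.

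In the remaining lists, 0 SR protein kinase, phosphatase and importer probe sets (20) and 0 exon junction complex probe sets (7) reached an unadjusted p under 0.05 by limma, with Srpk3 (0.71 ± 0.45, and 0.84 ± 0.60) and Alyref (0.54 ± 0.28, and -0.06 ± 0.63) as those of smallest p. The SMN complex, which loads Sm rings and whose loss causes spinal muscular atrophy, had 1 of 26 probe sets higher (3.85%), that of Gemin2 (0.81 ± 0.36), and the Lsm proteins 2 of 13 (15.4%), with Lsm6 at 0.96 ± 0.25 and, overlapping, 0.25 ± 0.22 and -0.20 ± 0.21. Factors of the branch point had 3 of 37 lower (8.11%), with Sugp1 at -0.52 ± 0.19 and, overlapping, 0.40 ± 0.70. The helicases had 1 higher (2.94%) and 4 lower (11.8%) of 34, and factors of the 5' splice site 1 higher (3.23%) and 3 lower (9.68%) of 31. All these shares stand against 7.09% higher and 7.58% lower of all tested.

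Markers of other cell types were measured in both groups. All 13 microglial markers measured had positive changes and 3 were called higher in SOD1, with a summed signal of 10112 to 42844 in WT and 104805 to 182931 in SOD1. The sums were 114754 to 135829 and 172697 to 179583 for 9 astrocyte markers, 189341 to 215951 and 246394 to 262138 for 8 oligodendrocyte markers, and 28259 to 67841 and 5377 to 19251 for 9 endothelial and mural markers, and in each of these the groups did not overlap. Of these, 2 astrocyte markers were called higher and 1 endothelial or mural marker lower. Motor neuron markers, 13 of 16 measured and 0 below the control level on all arrays, summed to 580166 to 636478 in WT and 511359 to 571144 in SOD1, also without overlap. Of these 13, 10 had negative and 3 positive changes, with a median of -0.20, and 0 were called. The 3 blood markers summed to 283 to 9760 in WT and 151 to 537 in SOD1, with overlap. Splicing genes are expressed in all of these cells, fewer cells of a type cannot be told apart from less RNA per cell, and the part of these cell types in the values above was not tested.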

How the data were processed

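Each array was deposited as 1 intensity for every probe set, on a linear scale that the authors had set to a common 2% trimmed mean, as the values show (about 2500.02 on every array). RNA was amplified in 2 rounds, per the labels' protocols. The algorithm behind the probe set values is not given in the sources used here. Such amplification shortens transcripts, which can lower the signal of probes distant from the 3' end. The number of arrays limits the precision.

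Symbols came from the platform annotation. All 175 probe sets, Pqbp1 included, matched RefSeq genes (GRCm38.p6) by Entrez identifier, and 0 symbols were updated. All 45101 probe sets were quantile normalised together, and 16 was added before log2. The 64 control probe sets were then left out of the tests. The other 45037 were filtered at the 40th percentile and fitted with limma 3.58.1 (R 4.3.3, lmFit, eBayes with a variance trend, two-sided, Benjamini-Hochberg over 27022 probe sets, threshold 0.05). The control level of an array is the 95th percentile over its 27 bacterial controls. The genes described were the Pqbp1, U2af1 and U2af2 genes, any member past the threshold or with probe sets separating the groups in opposite directions, the 4 genes of smallest p in each family, and the gene of smallest p in each list of other splicing genes. Further members were named after their values were seen. The members and lists were chosen with earlier results of these data known. Alternatives changed the scaling, the added value, the filter, the variance model, array weights, the replicate block, shared probe sets, a term for Xist, the threshold, the summary of probe sets and each array in turn. The fit was tested on simulated data. Figures were drawn with matplotlib 3.10.9.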

Additional observations from a re-analysis of the deposited data

How the results depend on the processing

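Leaving Pqbp1 aside, 0 members were called under each of the 18 alternatives fitted, or at an adjusted p of 0.10 (limma). At an unadjusted p of 0.05 by limma, 26 member probe sets passed. The count over all probe sets, 50, was 87 with a pseudocount of 64, 106 with a filter at the 60th percentile, 0 without a variance trend, 100 with array weights, 191 at an adjusted p of 0.10, and 0 to 79 with 1 array left out. Median centring gave 19 higher and 22 lower, against 17 and 33. The member median of 0.10 was 0.0532 with values as deposited, 0.16 with median centring, 0.18 with a term for Xist and -0.0312 with the probe set of highest signal for each gene, and it ranged from 0.0947 to 0.172 with 1 array left out. The change of U2af1 was 0.0354 with the Xist term, and the other 405 values of the described genes, taken for the probe set of smallest p, kept their sign and their side of the threshold or, for Pqbp1, stayed within 1 SD. The cause of these shifts was not tested. With the replicate number as a block, 76 probe sets and 0 members were called. The values showed little pairing of the arrays by number, but 3 arrays in each group cannot exclude one. Deviations from the group means correlated, across probe sets, at 0.03, -0.04 and -0.01 for numbers 1 to 3, and 1 of 6 arrays correlated best with its own number.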
